A study of Homo sapiens with 6 samples.

Results

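The mitochondrial ribosome is assembled from RNAs encoded in mitochondrial DNA and from proteins that are encoded in the nucleus, made in the cytosol and imported. It translates the few mRNAs of mitochondrial DNA, all of which encode core subunits of the respiratory chain and the ATP synthase. Some of its proteins have counterparts in the bacterial ribosome, while others are found only in mitochondria. The genes described here are the nuclear genes for these proteins named MRPL (large subunit) or MRPS (small subunit). They are the rows of the deposited table whose symbol is MRPL or MRPS followed by a number and at most 1 letter from A to C, with at least 100 normalised reads on average. Of 78 rows with such a symbol, 72 reached that mean, out of 57820 annotated genes in all. Of the 72, 46 encode proteins of the large subunit and 25 proteins of the small subunit. The remaining gene, MRPS36, carries the symbol but is now named KGD4, for a component of the 2-oxoglutarate dehydrogenase complex. By their roles, MRPS18A and MRPS30 were counted with the large subunit despite their symbols.

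The libraries were made from polyadenylated RNA of U2OS, an established cell line from a human osteosarcoma, in 2 groups of 3. One group received 5 µM NMS-873 in DMSO for 4 h. The other received 0.05% DMSO for 4 h. NMS-873 blocks VCP (p97) allosterically; VCP is an ATPase that extracts ubiquitylated proteins from complexes and membranes. The study's title links VCP to MYC function, and MYC is known to drive genes of ribosome and mitochondrial biogenesis. The labels do not state whether each library is a culture of its own. The p-values therefore measure only how far these samples spread, and that spread may be technical.

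The libraries held between 21132311 and 22488952 reads in genes, and ERCC spike-in transcripts took 0.359% to 0.386% of reads. The spike-in transcripts also set the scaling of the deposited values. Of the markers of an osteosarcoma line, RUNX2, VIM, SPARC and COL1A1 were detected and COL1A2 had a mean normalised count of 9.83. With NMS-873, RUNX2 (log2 fold change -0.95), COL1A1 (-0.43) and VIM (-0.20) fell, and SPARC (-0.03) did not pass the test; VIM lost its call without NMS-873 replicate 2 or DMSO replicate 3. Their part in the results was not tested. Of markers of other cell types ALB and CD3E were at 0, CDH5 had a mean of 7.12, PTPRC of 10.5 and EPCAM of 75.4. NMS-873 replicate 1 stood apart from the other libraries of its treatment, with a chi-square per degree of freedom of 7.49 and 7.96 against them, where NMS-873 replicates 2 and 3 gave 1.80 against each other. DMSO replicate 3 gave 3.57 and 3.64 against the other DMSO libraries, which gave 1.53 against each other.

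Transcripts of the mitochondrial ribosomal proteins were slightly lower after NMS-873 under spike-in scaling, by as much as the median of all genes. With limma on log2(normalised count + 1) and Benjamini-Hochberg adjustment over 14889 genes, 27 of the 72 members fell at an adjusted p under 0.05, 1 rose and 44 did not pass. The members' median log2 fold change was -0.10, and that of all genes tested was also -0.10. The median of the genes averaging at least 100 normalised reads, as the members do, was -0.08. With size factors computed from the genes in place of the spike-in RNA the members' median was 0.00, with 14 lower and 7 higher. The share of members that fell was 37.5%, against 33.0% of all genes tested and 35.4% of the genes averaging at least 100 normalised reads. The share that rose was 1.39%, against 14.9% of all genes tested and 18.3% of those with a mean of at least 100. The fraction of members that fell was thus close to the background, whereas the fraction that rose was below it. Rises were also absent among 79 cytosolic ribosomal proteins, 71 nuclear respiratory chain subunits and 17 mitochondrial tRNA synthetases, with 0 in each list. By contrast, 2 of 16 mitochondrial translation factors and 3 of 27 mitoribosome assembly and rRNA modification factors rose.

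The members' changes covered a narrow range. Their log2 fold changes ran between -0.56 and 0.16, with an SD of 0.12 over the 72 genes, against an SD of 0.38 over the genes with a mean of at least 100. Of the 72, 0 changed by 2-fold or more, against 264 (2.42%) of the genes with a mean of at least 100. The narrow range was not particular to the members. The SD was 0.067 over the cytosolic ribosomal proteins and 0.083 over the nuclear respiratory chain subunits, with 0 changes of 2-fold or more in either list. The 95% interval of the fitted log2 fold change lay wholly within 0.2 of zero for 26 members. Libraries of the treatments did not overlap for 29 members lower with NMS-873 and 1 higher, against 37.2% and 16.4% of all genes tested.

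**Figure D1:**
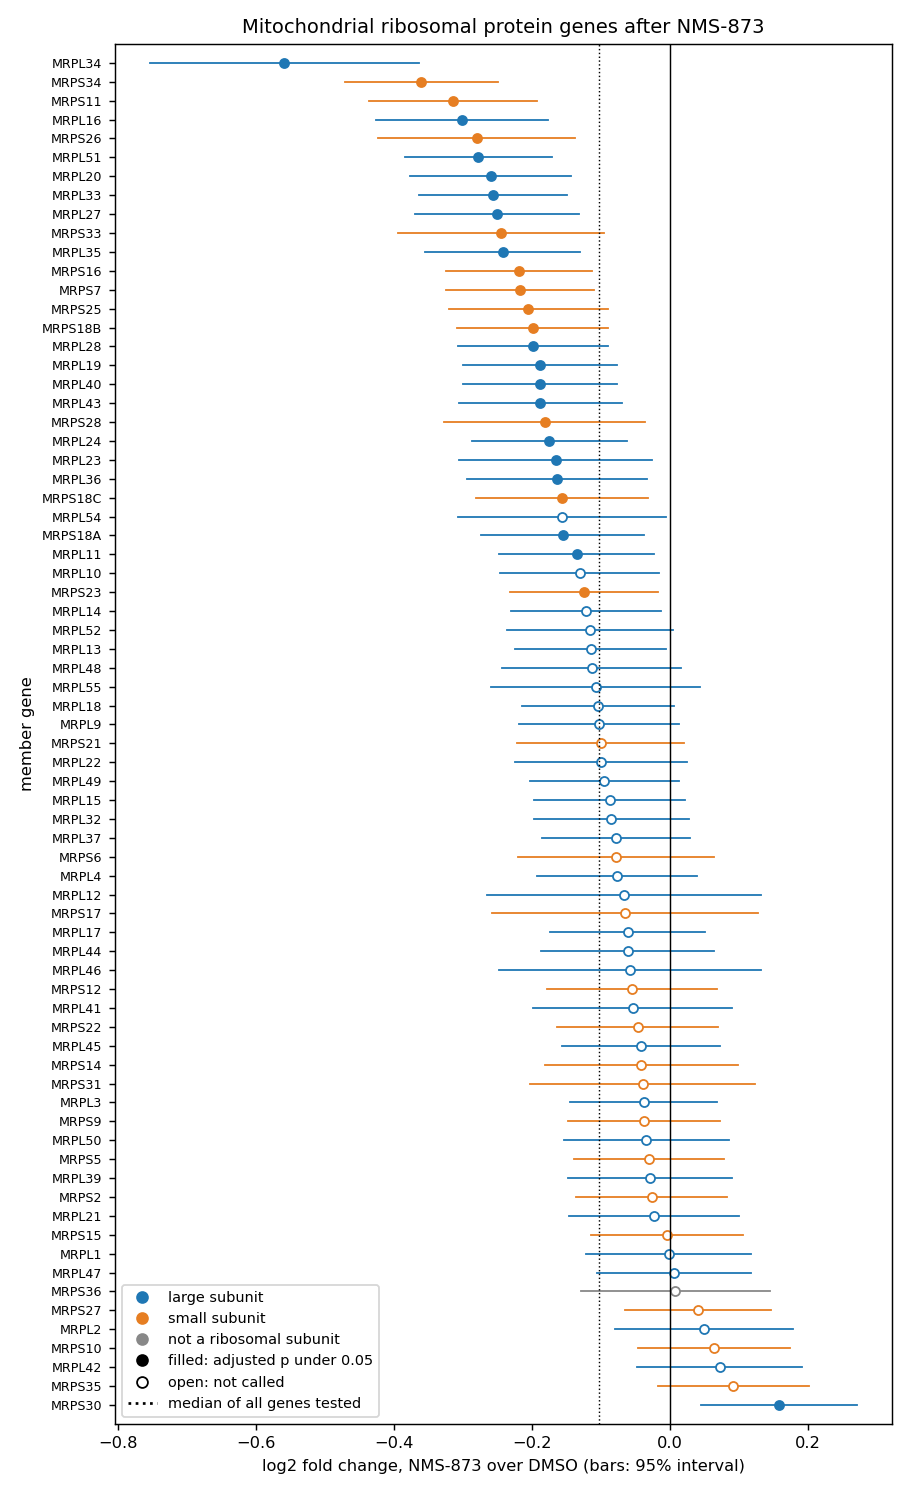
Log2 fold change of each of the 72 genes, NMS-873 over DMSO, with 95% intervals, sorted from the lowest at the top. Filled points passed an adjusted p of 0.05, colours give the subunit and the dotted line is the median of all genes tested (-0.10). The largest fall is that of MRPL34 (-0.56), and MRPS30 (0.16) is the filled point above 0.

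The largest fall was that of MRPL34, a protein of the large subunit with a bacterial counterpart (ENSG00000130312.2, chr19:17403418-17417652, hg19, plus strand). MRPL34 had 142, 158 and 167 normalised reads in the NMS-873 libraries, against 215, 224 and 249 in the DMSO libraries. The groups did not overlap, and every NMS-873 library lay below the lowest DMSO library. The log2 fold change was -0.56 ± 0.10 (SE, n = 3 each; limma adjusted p = 3.3e-07). MRPL34 was also the member with the lowest mean normalised count, 192, and its span lies inside that of ABHD8 on the opposite strand, whose log2 fold change was -0.07 without passing the test.

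Next came MRPS34, a mitochondria-specific protein of the small subunit (ENSG00000074071.9, chr16:1821891-1823156, hg19, minus strand). MRPS34 had 1464, 1522 and 1569 normalised reads with NMS-873, against 1929, 1836 and 2088 with DMSO. The groups did not overlap, and the log2 fold change was -0.36 ± 0.06 (SE, n = 3 each; limma adjusted p = 6.2e-09). MRPS11, which has a bacterial counterpart in the small subunit (ENSG00000181991.11, chr15:89010684-89022222, hg19, plus strand), had 737, 777 and 792 normalised reads with NMS-873, against 967, 931 and 971 with DMSO. All NMS-873 libraries lay below all DMSO libraries, and the log2 fold change was -0.31 ± 0.06 (SE, n = 3 each; limma adjusted p = 4.6e-06).

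MRPL16, whose bacterial counterpart lies in the large subunit (ENSG00000166902.4, chr11:59573608-59578345, hg19, minus strand), had 695, 728 and 710 normalised reads with NMS-873, against 866, 822 and 947 with DMSO. Its log2 fold change was -0.30 ± 0.06 (SE, n = 3 each; limma adjusted p = 1.8e-05), again without overlap. MRPS26, a mitochondria-specific small-subunit protein (ENSG00000125901.5, chr20:3026591-3028900, hg19, plus strand), averaged 425 ± 14.0 normalised reads with NMS-873 and 516 ± 27.1 with DMSO (SD, n = 3 each), a log2 fold change of -0.28.

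MRPL51, a mitochondria-specific large-subunit protein (ENSG00000111639.3, chr12:6601150-6603007, hg19, minus strand), averaged 2806 ± 185 normalised reads with NMS-873 and 3398 ± 137 with DMSO (SD, n = 3 each), a log2 fold change of -0.28. It overlaps NCAPD2 on the opposite strand, which fell by 0.23 on the log2 scale. MRPL20 averaged 1041 ± 50.2 with NMS-873 and 1247 ± 62.8 with DMSO, and MRPL33 averaged 2243 ± 108 with NMS-873 and 2678 ± 101 with DMSO (SD, n = 3 each), both log2 fold changes being -0.26. Both proteins have bacterial counterparts in the large subunit, and for both the groups did not overlap. MRPL33 shares part of its span with BRE on the same strand, whose log2 fold change of -0.04 did not pass the test.

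These 8 genes passed the test under all 17 alternative settings of scaling, filter, scale, model and left-out library, as did MRPL35, MRPS16, MRPS25 and MRPL28. The other 16 called members lost the call under at least 1 of them.

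**Figure D2:**
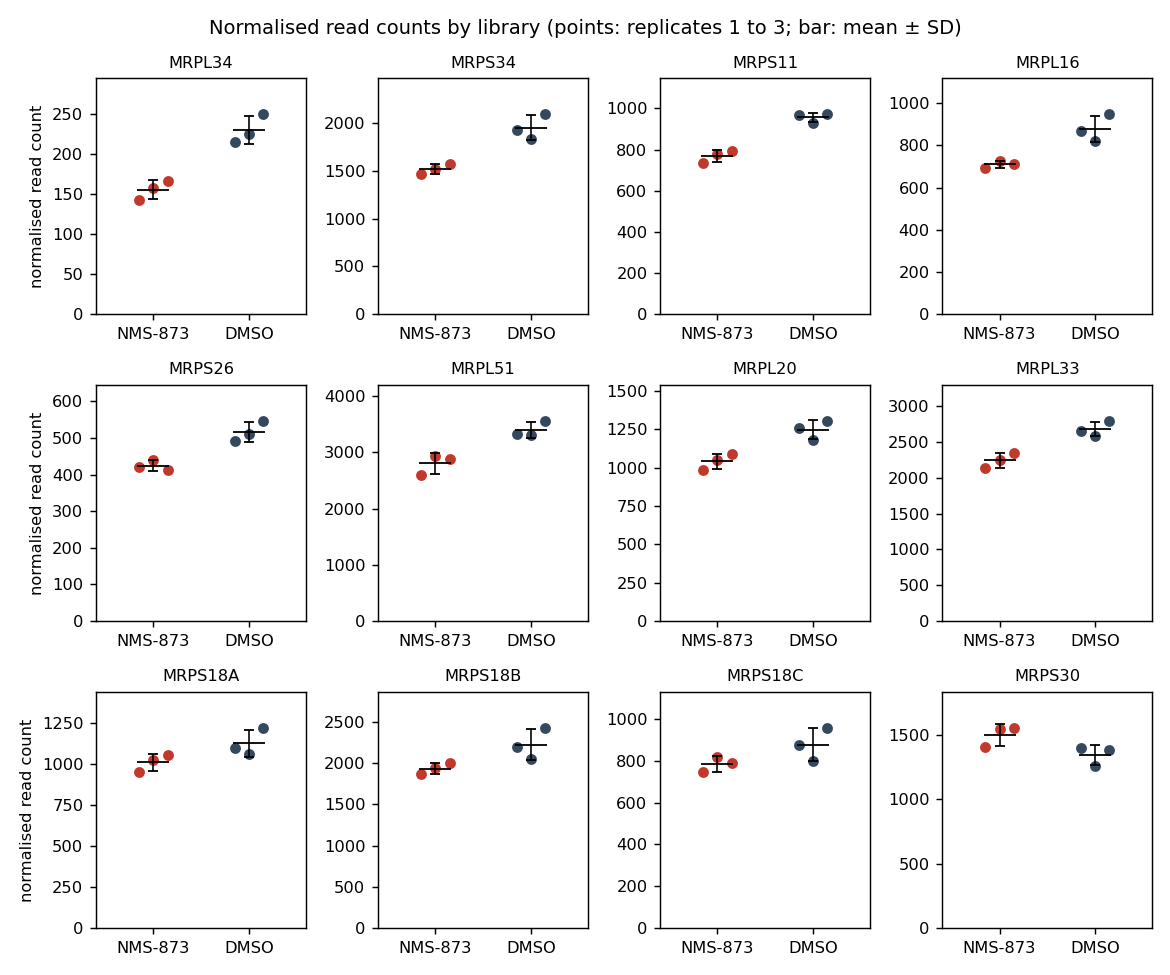
Normalised read counts of 12 members in each library, NMS-873 left and DMSO right, with points for replicates 1 to 3 and bars for the mean ± SD. For the 8 largest falls (MRPL34 to MRPL33) no NMS-873 library reaches the lowest DMSO library; for MRPS18C the groups overlap, and MRPS30 is higher with NMS-873.

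MRPS30 was the member that rose. It encodes a mitochondria-specific protein of the large subunit (ENSG00000112996.5, chr5:44809027-44820530, hg19, plus strand). MRPS30 had 1402, 1547 and 1552 normalised reads with NMS-873, against 1397, 1254 and 1382 with DMSO. The lowest NMS-873 library exceeded the highest DMSO library by a few reads, so the groups met without overlapping. The log2 fold change was 0.16 ± 0.06 (SE, n = 3 each; limma adjusted p = 0.0158). This call was lost on log2(FPKM + 0.1), without a variance trend, and without NMS-873 replicate 2, NMS-873 replicate 3 or DMSO replicate 2.

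Transcripts of the 3 paralogues of the bacterial S18 protein all fell. MRPS18B, in the small subunit, had 1868, 1946 and 1998 normalised reads with NMS-873, against 2200, 2056 and 2429 with DMSO, a log2 fold change of -0.20 (limma adjusted p = 0.00139). MRPS18A, in the large subunit, had 954, 1024 and 1055 with NMS-873, against 1098, 1063 and 1221 with DMSO, a log2 fold change of -0.16 (limma adjusted p = 0.0239). MRPS18C had 748, 820 and 788 with NMS-873, against 876, 798 and 958 with DMSO, a log2 fold change of -0.16 (limma adjusted p = 0.0318). MRPS18A and MRPS18B did not overlap between treatments, whereas MRPS18C did. MRPS18B overlaps PPP1R10 on the opposite strand, which fell by 0.85 on the log2 scale. Of the 17 alternative settings, MRPS18B passed in 13, MRPS18A in 11 and MRPS18C in 8. All 3 calls were lost with gene-based scaling and without DMSO replicate 3, those of MRPS18A and MRPS18C also without NMS-873 replicate 1, and that of MRPS18C without DMSO replicate 1.

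Several members with described roles beyond the ribosome's structure did not pass the test. MRPL12, which also binds the mitochondrial RNA polymerase, averaged 192 ± 39.7 normalised reads with NMS-873 and 200 ± 29.7 with DMSO (SD, n = 3 each), with a 95% interval of the log2 fold change between -0.27 and 0.13. It shares nearly its whole span with SLC25A10 on the same strand, so reads of the 2 genes may have been divided between them or set aside. MRPS12, the counterpart of the bacterial decoding-centre protein S12, averaged 815 ± 52.7 with NMS-873 and 846 ± 36.0 with DMSO (SD, n = 3 each). MRPL32, which is matured by the mitochondrial AAA protease, averaged 1530 ± 87.6 with NMS-873 and 1626 ± 147 with DMSO (SD, n = 3 each). MRPS36 (KGD4) averaged 549 ± 21.4 with NMS-873 and 547 ± 53.1 with DMSO (SD, n = 3 each), with a 95% interval between -0.13 and 0.15. MRPL3, the member with the highest mean normalised count, 3739, had a log2 fold change of -0.04.

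Transcript levels per length differed widely among the genes for proteins of 1 particle. Mean FPKM over the 6 libraries ran between 1.43 for MRPL46 and 97.7 for MRPL51, a 68.1-fold range. MRPL14 (91.7 FPKM) and MRPL15 (74.5 FPKM) followed MRPL51. MRPS17 (4.14 FPKM) and MRPS6 (5.09 FPKM) were the next lowest after MRPL46. Of these 6 genes, MRPL51 alone passed the test, and MRPL14 had a log2 fold change of -0.12 (limma adjusted p = 0.0588). FPKM divides by the length of all annotated exons of a gene, so a gene with long annotated exons outside its main transcript has a low value. In addition, MRPL46, MRPS17 and MRPS6 share nearly their whole span or all of it with other genes on the same strand. Some of their reads may have been divided or set aside, which was not tested.

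Members of both subunits fell, where 35.4% of the genes with a mean of at least 100 fell and 18.3% rose. In the large subunit 16 of 46 (34.8%) fell and 1 rose (median log2 fold change -0.11). In the small subunit 11 of 25 (44%) fell (median -0.08). Of the 46 genes for proteins with bacterial counterparts, 19 (41.3%) fell, and of the 25 genes for mitochondria-specific proteins 8 (32%) fell and 1 rose. In the large subunit 3 of 16 mitochondria-specific members (18.8%) and 13 of 30 conserved members (43.3%) fell. In the small subunit 5 of 9 mitochondria-specific members (55.6%) and 6 of 16 conserved members (37.5%) fell. The differences between these classes were not tested.

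Summed over the members, normalised counts averaged 90457 ± 4222 with NMS-873 and 97800 ± 4446 with DMSO (SD, n = 3 each), a ratio of 0.925. The members' share of the summed count of all tested genes does not depend on how libraries are scaled. It lay between 0.405% and 0.426% with NMS-873 and between 0.444% and 0.461% with DMSO, without overlap. The shares of nuclear respiratory chain subunits did not overlap either, at 0.681% to 0.714% with NMS-873 and 0.754% to 0.785% with DMSO. Those of cytosolic ribosomal proteins overlapped, at 4.87% to 5.19% with NMS-873 and 5.16% to 5.47% with DMSO. A share also depends on the counts of all other genes. In these bulk samples, fewer cells and less RNA per cell cannot be told apart.

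The 2 libraries that stood apart bore on the members. NMS-873 replicate 1 was the lowest of the 6 libraries for 59 of the 72 members, and DMSO replicate 3 the highest for 54. The members' median deviation from the gene mean was -0.13, -0.03 and -0.00 on the log2 scale in NMS-873 replicates 1 to 3, and 0.03, -0.01 and 0.13 in DMSO replicates 1 to 3. Genes with a mean of at least 100 deviated in the same libraries, by -0.09 in NMS-873 replicate 1 and 0.08 in DMSO replicate 3. Without DMSO replicate 3, 17 members fell, without NMS-873 replicate 1, 19 fell, and without both libraries 14 fell and 3 rose. Calls among all 14889 genes tested moved as well. Between 4005 and 4957 of them fell when 1 library was left out, against 4910 with all 6 libraries.

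**Figure D3:**
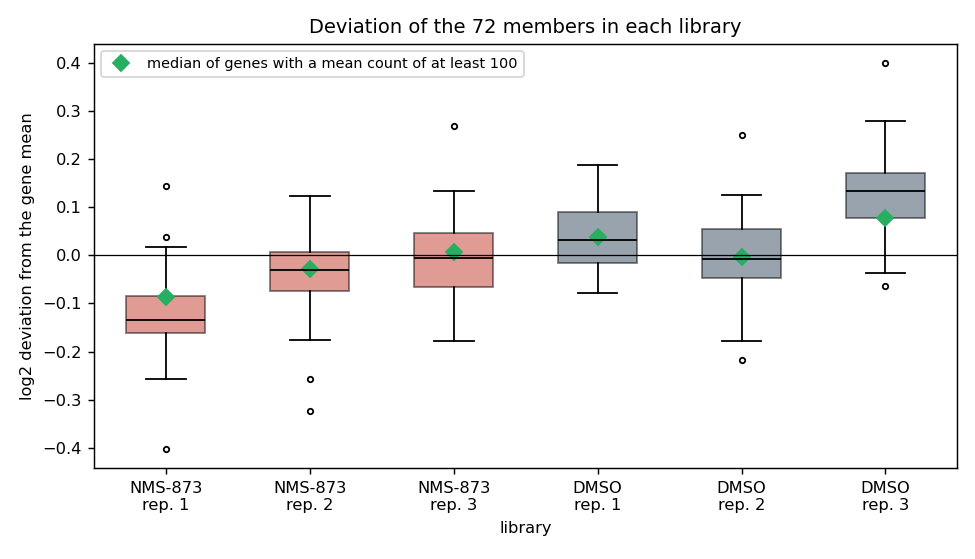
Deviation of each member from its mean over the 6 libraries (log2), with NMS-873 libraries left and DMSO libraries right; boxes give quartiles and diamonds the median of genes with a mean count of at least 100. The box of NMS-873 replicate 1 has its median at -0.13 and that of DMSO replicate 3 at 0.13, with the other 4 medians between -0.03 and 0.03.

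The number of members called moved with the scaling and with the variance model. The 14 members that fell and 7 that rose with gene-based size factors compare with 20.9% lower and 25.3% higher among all genes tested. Without a variance trend, under spike-in scaling, 13 members fell and 0 rose. The members that rose with gene-based size factors were MRPS30, MRPS35, MRPL42, MRPS10, MRPL2, MRPS27 and MRPL47. RNA content per cell and the amount of spike-in added cannot be told apart in these files.

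By the adjusted p-values of the authors' deposited table, 20 members were lower and 1 was higher at the same threshold, and all 21 were called here with the same sign. Both comparisons rest on the same reads, so this agreement is not independent. The share of all genes called in the authors' comparison was not counted here. Among the rows just outside the mean of 100, MRPL38 (mean 93.6) had a log2 fold change of -0.33 and MRPL53 (mean 38.1) of -0.60, and both passed the test, while MRPS24 (mean 32.5) did not. The other 3 rows, a second row for MRPS17 and 2 rows for MRPL30, had means of 1.49, 0.171 and 0 and were not tested. MRPL53 shares nearly its whole span with CCDC142 on the same strand, which fell by 0.73 on the log2 scale. Each of the rows under the mean of 100 overlaps another row on the same strand. Some of their reads may have been divided or set aside, so a low mean need not be a low transcript level.

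Some members share sequence with neighbours. In the deposited coordinates 42 members overlap another gene at any level. Of these, 26 overlap a gene with a mean of at least 100, 7 of them on the same strand. The sources used here do not say whether strand was used in counting. Of these 26 members 13 (50%) fell, and of the other 46, 14 (30.4%) fell and 1 rose, where 35.4% of the genes with a mean of at least 100 fell. Some of the 46 overlap genes of lower mean, which may also take reads from the count. In the same coordinates 16 members start within 1000 bases of a tested gene that runs the other way and does not overlap their start. In 5 of these 16 pairs both genes fell, in 2 the member alone and in 2 the partner alone. In 2 the partner rose beside a member with no call, and in 5 neither passed. Of all genes tested 33.0% fell, which is a rate for single genes and not for both genes of a pair. A background rate for pairs was not computed. The pair of MRPS11 and MRPL46 is counted from both sides. The 5 pairs were MRPS34 with EME2, MRPL27 with EME1, MRPL36 with NDUFS6, MRPS18C with HELQ and MRPS16 with RP11-152N13.5. MRPS35 (log2 fold change 0.09, no call) lies beside RP11-1060J15.4, which fell (-0.76), and MRPL11 fell beside PELI3, which did not pass the test. In the pair of MRPS11 and MRPL46, whose starts lie 34 bases apart, MRPS11 fell and MRPL46 had a log2 fold change of -0.06 without passing the test. MRPL50 and MRPL21 did not pass the test beside partners that rose, ZNF189 (log2 fold change 0.16) and IGHMBP2 (0.28).

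Promoters of 67 members were matched in RefSeq (GRCh38.p14), each a window of 300 bases with 250 before the start. The windows were searched on both strands for 8 motif forms, and these letters were chosen with the data already seen. They were the NRF1, YY1 and CRE motifs (10 letters each), the ETS motif in a shorter form CCGGAAG and a longer form CCGGAAGT that contains it, the E-box CACGTG, the TATA motif TATAAA and the ATF4 element TGATGNAA. NRF1 and GABPA, an ETS factor, are known regulators of nuclear genes for mitochondrial proteins. Upstream windows of 5 called members are shown, with the shorter ETS form in capitals on either strand. MRPS26, MRPL20 and MRPL33 are falls with a match, MRPS25 is a fall without one, and MRPS30 is the rise. MRPL34 and MRPS11, the largest and the third largest falls, hold no such match in their windows.
MRPS26, chr20:3045932-3046051, plus strand: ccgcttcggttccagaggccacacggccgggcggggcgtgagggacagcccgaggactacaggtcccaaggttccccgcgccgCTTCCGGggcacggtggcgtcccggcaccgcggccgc
MRPL20, chr1:1407294-1407413, minus strand: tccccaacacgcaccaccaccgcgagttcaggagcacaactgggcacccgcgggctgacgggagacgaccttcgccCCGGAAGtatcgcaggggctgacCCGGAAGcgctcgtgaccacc
MRPL33, chr2:27771599-27771718, plus strand: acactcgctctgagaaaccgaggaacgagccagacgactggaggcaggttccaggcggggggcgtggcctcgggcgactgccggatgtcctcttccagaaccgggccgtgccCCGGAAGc
MRPS25, chr3:15065316-15065435, minus strand: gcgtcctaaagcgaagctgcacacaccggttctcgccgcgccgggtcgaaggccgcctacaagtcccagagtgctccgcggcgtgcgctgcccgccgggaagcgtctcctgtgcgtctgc
MRPS30, chr5:44808827-44808946, plus strand: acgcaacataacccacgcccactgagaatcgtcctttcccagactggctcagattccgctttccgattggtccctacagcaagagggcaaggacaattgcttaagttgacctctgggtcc

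Member promoters were set against those of the 8883 matched genes that reach the same mean of 100, members included. The shorter ETS form was in 25 of 67 member promoters (37.3%), against 21.2% of these genes and 10.7% of all 27305 RefSeq promoters. The YY1 motif was in 11 (16.4%), against 3.19% of these genes and 1.28% of all promoters. The NRF1 motif was in 8.96% of member promoters, against 12.8% of these genes and 6.28% of all promoters, so its direction depends on the background. The E-box was in 11.9%, against 10.5% of these genes, and the TATA motif in 4.48%, against 4.93%. The CRE form was in 0 member promoters and the ATF4 element in 1. The shorter ETS form was in 15 of the 25 members that fell (60%) and in 10 of the 42 others (23.8%). The longer form, which was searched first, was in 5 of the 25 (20%) and in 4 of the 42 (9.52%). The median log2 fold change was -0.16 in members with the shorter form and -0.07 without it, and -0.25 with the longer form (9 members) and -0.09 without it. Over all genes with a mean of at least 100, 34.1% of those with the shorter form fell, against 34.9% of those without it. With 8 forms searched after the data were seen and no test made, the split among members is a description of these genes. A match is only a match of letters, and binding was not measured.

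**Figure D4:**
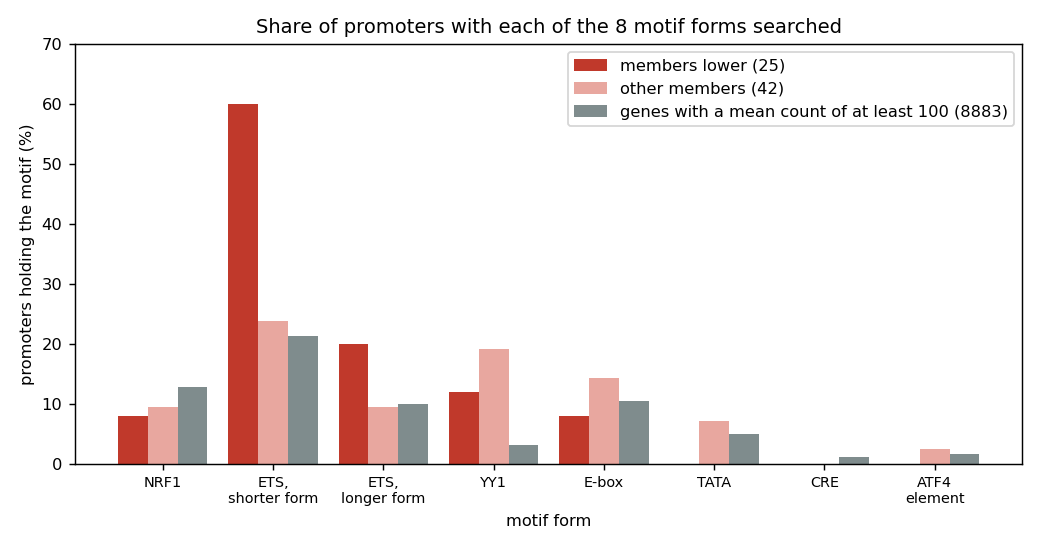
Share of promoters that hold each of the 8 motif forms searched, for members that fell (25), other members (42) and genes with a mean count of at least 100 (8883). The shorter ETS form shows 60%, 23.8% and 21.2%, and the longer form 20%, 9.52% and 9.86%.

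Other genes of mitochondrial translation moved in both directions. Of 6 mitoribosomal proteins with other symbols 2 fell, CHCHD1 by 0.24 and AURKAIP1 by 0.21 on the log2 scale. Of 16 translation factors 6 fell and 2 rose. C12orf65, a release factor family member, had 685, 782 and 810 normalised reads with NMS-873, against 502, 507 and 512 with DMSO, a log2 fold change of 0.58 (limma adjusted p = 1.7e-14). OXA1L, the insertase for mitochondrial translation products, had a log2 fold change of -0.23 and MTFMT, which formylates the initiator tRNA, of -0.31, and both fell.

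Of 27 assembly and rRNA modification factors 12 fell and 3 rose. MPV17L2, an assembly factor, had 335, 313 and 323 normalised reads with NMS-873, against 187, 178 and 198 with DMSO, a log2 fold change of 0.78 (limma adjusted p = 4.8e-15). The rRNA methyltransferase NSUN4 also rose (0.46), while the rRNA methyltransferase MRM1 fell (-0.56). These changes were larger in size than that of every member other than MRPL34.

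Of 14 genes for mitochondrial transcription and its nuclear regulators 4 rose and 6 fell. MYC had 10414, 10733 and 10914 normalised reads with NMS-873, against 4423, 4237 and 4698 with DMSO, a log2 fold change of 1.26 (limma adjusted p = 6.7e-62). The coactivator PPARGC1B fell by 0.78 and the termination factor gene MTERF by 0.40 on the log2 scale. Of 17 mitochondrial tRNA synthetases 9 fell and none passed in the other direction, with LARS2 at -0.35, VARS2 at -0.34 and CARS2 at -0.31. Of 15 rRNAs and mRNAs encoded in mitochondrial DNA 8 fell. MT-ND6 had 512, 340 and 371 normalised reads with NMS-873, against 585, 608 and 523 with DMSO, so that NMS-873 replicate 1 lay nearest the DMSO libraries there. Its log2 fold change was -0.51. These counts were low for the list, whose median mean count was 30442. The libraries were of polyadenylated RNA, and whether strand was used in counting is not stated. Whether these reads came from MT-ND6 mRNA was therefore not tested. MT-ND1 (-0.40) and MT-ND3 (-0.33) fell too. The libraries of the treatments did not overlap for 2 of the 15. The count of 8 was 15 without NMS-873 replicate 1 and 5 when DMSO replicate 1, DMSO replicate 2 or either of the other NMS-873 libraries was left out. It was 2 on log2(FPKM + 0.1), where MT-ND1 lost its call, and 1 without a variance trend, where MT-ND1 and MT-ND3 lost theirs.

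Of 71 nuclear subunits of the respiratory chain and ATP synthase 36 fell, with a median of -0.13 and ATP5G1 (-0.33), ATP5J (-0.33) and ATP5G3 (-0.27) having the lowest adjusted p. Without DMSO replicate 3, 20 of them fell. Of 79 cytosolic ribosomal proteins 16 fell, with a median of -0.08 and RPS26 (-0.26), RPS25 (-0.21) and RPL35 (-0.19) having the lowest adjusted p. Without DMSO replicate 3, 3 fell, and without NMS-873 replicate 1, 5 fell. Summed counts gave ratios of NMS-873 to DMSO of 0.913 for the respiratory chain list and 0.952 for the cytosolic ribosomal proteins, on either side of the 0.925 of the mitochondrial ribosomal proteins.

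**Figure D5:**
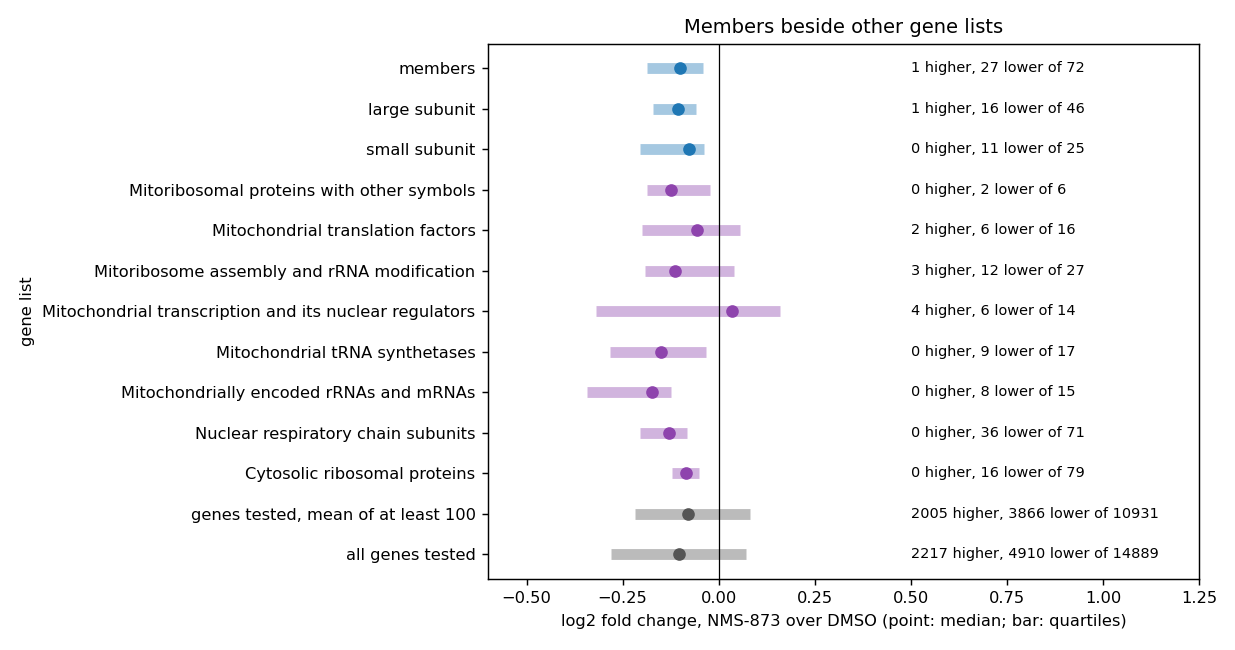
Median (point) and quartiles (bar) of the log2 fold change, NMS-873 over DMSO, for the members, their subunits, other gene lists and all genes tested, with the number that passed the test in each direction. The members' median is -0.10, the respiratory chain's -0.13 and the cytosolic ribosomal proteins' -0.08.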

How the data were processed

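RNA-seq libraries of U2OS cells, 3 with NMS-873 and 3 with DMSO, were grouped by the titles in the labels. The submitters' processing notes name hg19, featureCounts 1.5.1 and DESeq2 1.16.1. No aligner is named in the sources used here. Per the file headers the sample columns are FPKM, and the deposited table also gives a mean normalised count (a signal in reads after scaling), log2 fold changes and adjusted p-values of the authors' comparison. The design had assumed normalised counts. They were therefore rebuilt as FPKM times the deposited mean count over the mean FPKM, and 100% came within 0.001 of a whole read after multiplication by a library's size factor. The size factors equal the median of ratios of the spike-in rows.

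Genes with a mean of at least 10 (14889) entered a two-sided limma test (version 3.58.1, R 4.3.3). It modelled log2(normalised count + 1) by treatment alone with an intensity trend, and p-values were adjusted by Benjamini-Hochberg, with a threshold of 0.05. This scale understates changes of low genes. The fit was tested on simulated data. Without molecular identifiers, counting error understates the true error. No 2 libraries agreed within sampling noise.

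The members and lists were chosen with earlier results of these data known. Named members were 8 chosen for their roles, up to 8 rises and 8 falls of largest size past the threshold, those highest and lowest in count and FPKM and those next to the mean of 100, and up to 3 genes with the lowest adjusted p in each list. MRPS25, MRPL27, MRPS16, MRPL36, MRPL35, MRPL28, MRPS35, MRPL42, MRPS10, MRPL2, MRPS27, MRPL47, MRPL50, MRPL21, MRPL11, SPARC and the neighbouring genes were added to the text once their values had been seen. Among the markers, PECAM1 was not matched and is not analysed here. Alternatives covered scaling, filters, pseudocount, FPKM scale, variance model, replicate block and left-out libraries. Those that leave out 2 libraries together, leave out overlapping members or shorten the ETS motif were chosen after seeing the data. An earlier search for 7 of the 8 motif forms used the longer ETS form and a promoter table that still held duplicate entries; the shorter form was adopted afterwards, and all 8 are reported. Sequences are RefSeq's (GRCh38.p14) and gene coordinates the deposited hg19 ones.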

Additional observations from a re-analysis of the deposited data

How the results depend on the processing

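Spike-in scaling was the choice that moved most counts. With gene-based size factors, 7 members rose and 14 fell, among all genes 3760 rose and 3108 fell, and the median log2 fold change was 0.0025 for the members, -0.0018 for the large and 0.026 for the small subunit. In that setting 2 and 1 proteins with other symbols rose and fell, 4 translation factors rose, 7 assembly factors rose and 6 fell, 8 transcription genes and 1 tRNA synthetase rose, 5 mitochondrially encoded genes fell, 9 cytosolic ribosomal proteins rose and 3 fell, and 2 respiratory chain subunits rose and 13 fell. TMM factors gave 7 and 14 members, 3700 and 3144 of all genes, medians of -0.00029, -0.0046 and 0.023, and for the lists in the same order 1 and 1, 4, 7 and 6, 8 and 1, 5, 6 and 3, and 2 and 13. Equal totals gave 2 members higher, and 1 cytosolic ribosomal protein higher and 31 lower. Quantile normalisation gave 2 members higher, 2 and 45 cytosolic ribosomal proteins, and 1 respiratory chain subunit higher. On log2(FPKM + 0.1) 0 members rose, 2 mitochondrially encoded genes and 5 cytosolic ribosomal proteins fell, and with no minimum 7 cytosolic ribosomal proteins fell. Without a variance trend 0 members rose and 13 fell, 1 translation factor rose and 3 fell, and 1 mitochondrially encoded gene, 3 cytosolic ribosomal proteins and 11 respiratory chain subunits fell. Leaving out NMS-873 replicate 1 and DMSO replicate 3 together, an alternative chosen after seeing the data, gave 3 members higher and 14 lower, 1 protein with another symbol higher, 3 translation factors and 15 mitochondrially encoded genes lower, 4 cytosolic ribosomal proteins in each direction and 10 respiratory chain subunits lower. Of the members that overlap no other gene with a mean of at least 100, also chosen after seeing the data, 14 fell. The cause of these shifts was not tested.

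With gene-based size factors 38 members lay above 0, against 8 in the reported analysis, and of the 30 that changed sign 0 had passed the test. Among those named by the rule they were MRPL15 (0.017), MRPL32 (0.019), MRPS6 (0.026), MRPL12 (0.037), MRPS17 (0.039), MRPL46 (0.046), MRPS12 (0.049) and MRPL3 (0.066). With TMM factors the values for the same 8 genes, in that order, were 0.014, 0.016, 0.023, 0.034, 0.036, 0.043, 0.046 and 0.064. With quantile normalisation MRPL12 (0.061), MRPS17 (0.064) and MRPL46 (0.072) were above 0. Leaving out both libraries that stood apart gave 0.017 for MRPL32, 0.019 for MRPS6, 0.025 for MRPL12, 0.062 for MRPS17, 0.0021 for MRPS12 and 0.046 for MRPL3.

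Leaving out 1 library at a time gave 0 to 2 members higher and 17 to 30 lower, with the lowest count without DMSO replicate 3. Among all genes tested it gave 1870 to 2406 higher and 4005 to 4957 lower. The range was 5 to 15 for mitochondrially encoded genes that fell, 0 to 1 and 3 to 19 for cytosolic ribosomal proteins, and 20 to 39 for respiratory chain subunits that fell. The log2 fold change lay between -0.22 and 0.078 for MRPL12, -0.14 and 0.0014 for MRPS17, -0.079 and 0.016 for MRPL3, and -0.036 and 0.087 for MRPS36.

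A replicate block gave 1 member higher and 30 lower, against 2352 and 5255 of all genes. Deviations of same-numbered libraries correlated by 0.04, -0.03 and 0.04, so the numbers were not taken to pair the samples, and 2 of the 3 NMS-873 libraries correlated best with the DMSO library of their own number. The other planned settings, a minimum mean of 50, a pseudocount of 0.1 and voom, left the counts of members within 1.5 times those reported. The depth of 21132311 to 22488952 reads limits MRPL34, MRPL12, MRPS17 and MRPL46 most, whose standard errors were about 0.10 on the log2 scale.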
